A study of Caenorhabditis elegans with 2 samples.

Results

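Chromatin immunoprecipitation and sequencing placed EFL-1::GFP at the promoters of 9 of 10 genes that load the DNA polymerase onto its template, join the lagging strand or supply its nucleotides. The 10 genes were listed by symbol. The rule used no measured value, but the list was drawn up with earlier results of these data known. It holds the sliding clamp gene pcn-1, the clamp loader genes rfc-1, rfc-2 and rfc-4, the lagging-strand genes lig-1 and crn-1, the single-strand binding gene rpa-1, and the nucleotide supply genes rnr-1, rnr-2 and dut-1. All 10 were found in the WBcel235 annotation, among 19973 protein-coding genes of the 6 nuclear chromosomes. The study has 2 libraries in a single group, which the labels number as biological replicates 1 and 2. They came from whole, mixed-sex first-stage (L1) larvae of Caenorhabditis elegans. The strain, YL424, carries the unc-119(ed3) mutation on chromosome III and the transgene vrIs68, in which the efl-1 promoter drives EFL-1 joined to GFP and FLAG with the efl-1 3' UTR, beside a functional unc-119 gene. The labels name no change at the worm's own efl-1 gene, and they give efl-1 as the antibody target. No other strain, stage or treatment was measured, so that only promoters were compared with one another and conditions could not be tested.

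EFL-1 is an E2F-family transcription factor that binds DNA with its partner DPL-1 and, with an Rb-like pocket protein, forms part of the DREAM complex, which holds cell cycle genes down in cells that are not dividing. In animals, genes for DNA synthesis are among the best known E2F targets. At the replication fork, PCNA encircles DNA and holds the polymerase on it, replication factor C opens the PCNA ring and closes it around primed DNA, replication protein A covers the exposed single strand, a flap nuclease and a ligase turn Okazaki fragments into a continuous strand, and ribonucleotide reductase makes the deoxyribonucleotides. A larva is a mixture of dividing and resting cells, and in chromatin from whole animals more bound cells and more binding per cell cannot be told apart.

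A gene was counted as bound when a peak summit fell in its promoter, taken as the 500 bp before and the 100 bp after each annotated start. In the authors' reproducible list of 3824 peaks, 9 of the 10 genes met this, against 14.8% of all protein-coding genes. The exception was rnr-2. The strength of a peak is given as the authors' own score, deposited without a stated scale, so that scores were ranked within a list, and lists were set against each other only relative to all bound genes. The median score of the 9 genes was 572, against 169 for all genes with a promoter summit, and 8 of the 9 scored above that general median. The ratio of these medians, 3.38, was 1.84 in the stronger 50% of peaks and 1.12 among genes with support in each replicate. Scores ran from 138 to 2745, a 19.9-fold range. Of the 10 genes, 5 had a peak among the strongest 20% of the list, where 4.68% of all genes had one. For 8 of the 10 genes the promoter peak was also supported in both replicate lists, where the overlapping entry passed a −log10 q of 2, as was the case for 6.93% of all genes. Of all entries, 1196 of 30000 passed this limit in replicate 1 and 12800 of 28686 in replicate 2, where the highest value was 4.22. Sequencing depth is unknown, because the peak lists give no numbers of reads.

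The sliding clamp gene pcn-1 had the strongest promoter peak of the 10 in the reproducible, pooled and replicate 2 lists, and came after rfc-4 in replicate 1. PCNA, which it encodes, is the ring that keeps replicative polymerases on DNA. Its peak (WBGene00003955, chromosome IV, 4049480 to 4049940 in ce11) scored 2745 in the reproducible list, 296 in replicate 1 and 2450 in replicate 2. It ranked 64 of 3824 in the reproducible list, 133 of 30000 in replicate 1 and 55 of 28686 in replicate 2. It was a high-ranking peak in every list. The summit was at −250 bp from the start, between pcn-1 and wrt-5, which lies upstream in the same orientation with a gap of 557 bp. The strongest other pooled entry within 2 kb of the summit scored 8.07, and the pcn-1 peak was 340 times that, on a scale that is not stated. A lone peak was not particular to pcn-1. For lig-1 and rnr-1 no other pooled entry lay within 2 kb, and the lowest such ratio among the rest was 4.14, for rpa-1.

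All 3 of the clamp loader genes among the 10 had promoter peaks, and these differed widely in strength. A further loader subunit gene outside the 10, rfc-3, had no reproducible promoter summit. The peak of rfc-4, which encodes a small subunit of the loader (WBGene00004340, chromosome III, 6971932 to 6972273), scored 1604 in the reproducible list, 317 in replicate 1 and 1294 in replicate 2. That of rfc-1, the large subunit (WBGene00004337, chromosome V, 14645835 to 14646165), scored 733 in the reproducible list, 104 in replicate 1 and 626 in replicate 2. That of rfc-2, another small subunit (WBGene00004338, chromosome IV, 1347068 to 1347294), scored 259 in the reproducible list, 20.8 in replicate 1 and 232 in replicate 2. The order rfc-4, rfc-1, rfc-2 was the same in both replicates. The weakest of them, rfc-2, was also the only one of the 9 bound genes whose replicate 1 entry did not pass a −log10 q of 2 (1.61), although it did in replicate 2 (4.22).

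The loader peaks sat in different surroundings. The rfc-4 summit was at −153 bp from its start and at −388 bp from that of eef-1A.1, a translation elongation factor gene read in the other direction, with 540 bp between the genes. Which of the neighbours the peak belongs to was not tested. The rfc-1 summit was at −18 bp from the outermost of 3 annotated starts, and at −190 and −252 bp from the others. The rfc-2 summit was at −131 bp from its start, in a gap of 2515 bp.

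**Figure D1:**
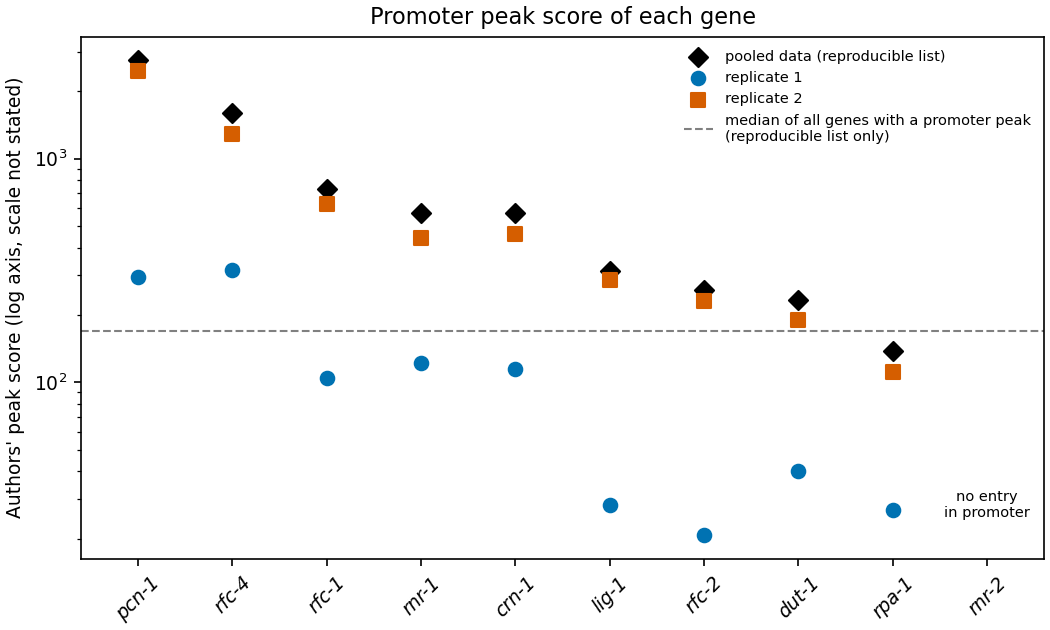
Authors' peak score on a log axis for the strongest promoter peak of each gene, in the reproducible list (black diamonds), replicate 1 (blue circles) and replicate 2 (orange squares). The dashed line, at 169, is the median over all genes with a reproducible promoter peak and applies to the black diamonds only. Of the black diamonds, 8 lie above it and rpa-1, at 138, lies below it, while rnr-2 has no entry with its summit in the promoter.

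Both lagging-strand genes were bound. The peak of crn-1, which encodes the flap endonuclease FEN-1 that trims Okazaki fragments and also acts in the breakdown of DNA in dying cells (WBGene00000794, chromosome I, 3481418 to 3481706), scored 572 in the reproducible list, 115 in replicate 1 and 459 in replicate 2. Its summit was the farthest from a start among the 9, at −432 bp, and lay in the annotated 3' UTR of Y47G6A.9, the next gene upstream in the same orientation, with 281 bp between the genes. The peak of lig-1, the DNA ligase gene (WBGene00002985, chromosome V, 10813780 to 10814021), scored 313 in the reproducible list, 28.2 in replicate 1 and 287 in replicate 2. It lay between lig-1, at −204 bp from the nearer of its 2 starts, and C29A12.1, at −415 bp, which are read in opposite directions.

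The single-strand binding gene rpa-1, which encodes the large subunit of replication protein A, had the weakest promoter peak of the 9 in the reproducible, pooled and replicate 2 lists, whereas in replicate 1 rfc-2 was weaker (20.8). It scored 138 in the reproducible list, 26.8 in replicate 1 and 111 in replicate 2 (WBGene00017546, chromosome II, 7664357 to 7664522). Its rank was 1491 of 3824 in the reproducible list, 1178 of 30000 in replicate 1 and 1624 of 28686 in replicate 2. The peak was therefore below the median of bound genes, but its replicate 1 entry passed a −log10 q of 2 (2.14), which that of rfc-2 did not. The summit was at −128 bp from the start.

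Among the nucleotide supply genes, rnr-1 and dut-1 had promoter peaks. The gene rnr-1 encodes the large subunit of ribonucleotide reductase. Its peak (WBGene00004391, chromosome III, 9228248 to 9228533) scored 573 in the reproducible list, 122 in replicate 1 and 441 in replicate 2. The gene has 2 annotated starts, and the summit lay between them, at −130 bp from the inner start and at +418 bp from the outer start, in an intron of the longer transcript. The gene dut-1 encodes dUTPase, which removes dUTP before it can enter DNA. Its peak (WBGene00010609, chromosome I, 9585165 to 9585385) scored 232 in the reproducible list, 40.2 in replicate 1 and 189 in replicate 2, with the summit at −139 bp.

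The small subunit gene of the same reductase, rnr-2 (WBGene00004392, chromosome III, 4093308 to 4094921, minus strand), had no entry with its summit in the promoter in any of the 4 lists, although 33.2% of all genes had one in the pooled list, 30.1% in replicate 1 and 33.9% in replicate 2. Reproducible summits flanked its promoter window on either side, although the inner peak itself reached across the start into the promoter. The inner peak (4094610 to 4094945) had its summit +143 bp into the gene, in intron 1, which is 116 bp long. That summit, at +166 bp in replicate 1 and +119 bp in replicate 2, thus fell outside the limit of 100 bp downstream. It scored 86.8 in the reproducible list, 15.6 in replicate 1 and 67.8 in replicate 2. The outer peak (4095528 to 4095725) had its summit at −706 bp, with −767 bp in replicate 1 and −705 bp in replicate 2. It scored 176 in the reproducible list, 15.8 in replicate 1 and 156 in replicate 2. Neither of these replicate 1 entries passed a −log10 q of 2 (0.92 and 0.94), whereas both replicate 2 entries did (4.22). A further replicate 1 entry had its summit at −970 bp and scored 13.2 (−log10 q of 0.65). Far fewer entries pass this limit in replicate 1 (1196 of 30000) than in replicate 2 (12800 of 28686). The outer summit also lay at −418 bp from the start of C03C10.7, read in the other direction, and counted as a promoter peak of that gene. With promoters doubled to 1000 bp upstream and 200 bp downstream, all 10 genes were counted (17.9% of all genes), and likewise where any base of the peak in the promoter was enough (15.9%).

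**Figure D2:**
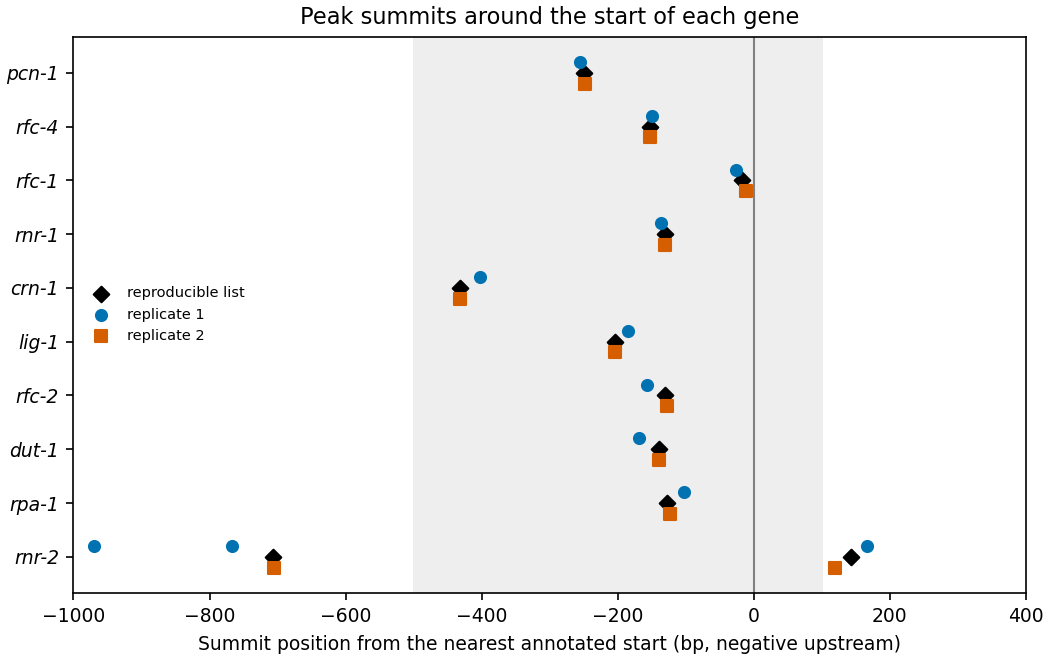
Position of each summit from the nearest annotated start of its gene, in bp and negative upstream, in the reproducible list (black diamonds), replicate 1 (blue circles) and replicate 2 (orange squares). The shaded band is the promoter window, 500 bp upstream to 100 bp downstream. Summits of 9 genes lie inside it at −432 to −18 bp, and those of rnr-2 lie outside it on both sides.

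Apart from crn-1 and rfc-1, the summits lay in a narrow zone. The median distance of the 9 summits from a start was −139 bp, against −173 bp for all bound genes, and 7 of the 9 lay between the quartiles of all bound genes, −281 and −105 bp. In 7 genes the summit was between genes, in crn-1 it was in a neighbour's 3' UTR and in rnr-1 in an intron. The matching shares over all promoter summits are not given here. A summit was shared with another protein-coding gene at 2 of the 9, rfc-4 and lig-1. Of all 2321 promoter summits 28.9% were shared in this way.

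The separate replicate lists placed the 9 peaks at nearly the same positions. Summits of replicates 1 and 2 were 4 to 30 bp apart with a median of 19 bp, which equals the median over the 2555 bound genes with an entry in each list. The order of strength was less fixed. Of the 36 pairs that the 9 genes form, 29 had the same order in both replicates. The top rank changed hands, since rfc-4 scored above pcn-1 in replicate 1 (317 against 296) and below it in replicate 2 (1294 against 2450). Likewise rfc-1, crn-1 and rnr-1 ranked rnr-1, crn-1, rfc-1 in replicate 1 (122, 115 and 104) and rfc-1, crn-1, rnr-1 in replicate 2 (626, 459 and 441). The order within each of these groups is therefore not larger than the difference between libraries. The step from this middle group down to lig-1, rfc-2, dut-1 and rpa-1 was present in each list.

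Each of the 9 genes scored higher in replicate 2 than in replicate 1. The median over all genes with a promoter entry was also higher in replicate 2 (21.1 against 10.1), whereas that over all entries was lower (5.21 against 8.09). The ratio of replicate 2 to replicate 1 gives each gene's place between the libraries. Its median was 5.89 over all bound genes with an entry in each list and 4.69 over the 9. It was highest for rfc-2 (11.1), lig-1 (10.2) and pcn-1 (8.27). It was lowest for rnr-1 (3.62), crn-1 (3.99) and rfc-4 (4.08). Read against the general ratio, the former group ranked relatively higher in replicate 2 and the latter in replicate 1. The cause was not tested.

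**Figure D3:**
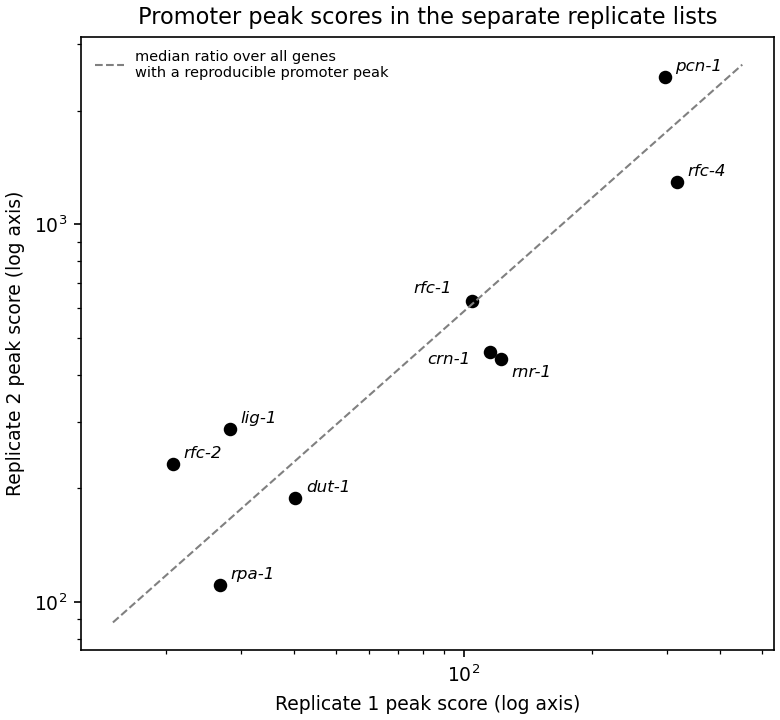
Promoter peak score in the replicate 1 list against that in the replicate 2 list, both on log axes, for the 9 genes with an entry in each (points). The dashed line marks the median ratio of 5.89 over all bound genes. The points of pcn-1, lig-1 and rfc-2 lie farthest above the line, and those of rfc-4, crn-1 and rnr-1 farthest below it.

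The DNA under most of the summits held the letters of an E2F site. Searched on both strands were 4 E2F cores, namely TTCCCGC together with its variant TTCGCGC, and TTGCCGC together with its variant TTGGCGC. Also searched was the core TTTGAA with its variant form TTCGAA of the cell cycle genes homology region (CHR), which the DREAM subunit LIN-54 binds. Cores were allowed to overlap each other. Shown here are 30 bases of the ce11 sequence, 5′ to 3′ on the strand of the gene, around the E2F core nearest to the summit or, in rfc-4 and lig-1, which had none within 100 bp, around the nearest CHR core. Capitals mark every core of either kind in the run.
pcn-1, chrIV:4049642-4049671, minus strand: ggtaaattgagGCGCGAAgtttcaTTCGAA
rfc-1, chrV:14645970-14645999, minus strand: ggaatttgcttTTCCCGCtcagttttttaa
rfc-2, chrIV:1347213-1347242, plus strand: gaattttaagcGCGCCAAactgattttctt
rpa-1, chrII:7664432-7664461, plus strand: tcggcacacatTTCCCGCaaacatcacatt
rnr-1, chrIII:9228362-9228391, minus strand: tgcgtctcgttTTCGCGCgttcctctatta
rnr-2 intron peak, chrIII:4094786-4094815, minus strand: tccgcgaagagGCGCGAAatctggtgcttt
rnr-2 outer peak, chrIII:4095601-4095630, minus strand: aaTTCGAAcaaTTGGCGCGAAacctctatt
rfc-4, chrIII:6972122-6972151, plus strand: accgtacaccatTTCAAAcactctcggcgg
lig-1, chrV:10813922-10813951, plus strand: gtgcgcgcgccgTTCAAAatgtatcgtttt

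Within 50 bp of the summit, 7 of the 9 promoter peaks held an E2F core, against 17.4% of all promoter summits, 16.8% of all reproducible summits and 31% of the strongest 20% of peaks. The exceptions were rfc-4 and lig-1. The middle of the nearest E2F core was 1 bp from the summit in dut-1, 3 bp in rnr-1, 8 bp in rpa-1, 12 bp in rfc-1, 20 bp in crn-1, 41 bp in pcn-1 and 44 bp in rfc-2. In the reproducible list rpa-1, the weakest of the 9, had 3 of these cores within 50 bp and rfc-4, ranked next after pcn-1, had 0. Whether strength goes with the number of cores was not tested. A CHR core was also within 50 bp in 7 of the 9, against 35.4% of all promoter summits, 34.4% of all reproducible summits and 59.2% of the strongest 20%, and it was missing there in crn-1 and rpa-1. Both kinds of core were within 50 bp in 5 of the 9, namely pcn-1, rfc-1, rfc-2, rnr-1 and dut-1, against 9.35% of promoter summits. Within 100 bp, 7 of the 9 held an E2F core (21.7% of promoter summits) and 8 held a CHR core (56.3%), and within 25 bp these counts were 5 (10%) and 2 (11.5%). A match of letters is not evidence of a bound site, and these AT-rich CHR cores are common, being present in 69.1% of RefSeq promoters from 250 bp before to 50 bp after the start, where E2F cores were in 9.09%.

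In some promoters the E2F and CHR cores lay side by side. The shortest gap between them within 100 bp of the summit was 5 bp in pcn-1 and 8 bp in rfc-2 and dut-1, and it was 19 bp in rpa-1, 28 bp in rnr-1 and 30 bp in rfc-1. A gap of at most 10 bp, a limit chosen after these values were seen, was thus present in 3 of the 9 and in 7.8% of all promoter summits. Of the rnr-2 peaks, the outer peak had a gap of 2 bp and a cluster of E2F and CHR cores on both sides of its summit, 2 of the E2F cores overlapping each other. The intron peak had an E2F core with its middle 23 bp from the summit and a gap of 66 bp to a CHR core. The window of 250 bp before to 50 bp after the start of rnr-2, where no entry had its summit, held an E2F core that began at −223 bp, and no CHR core.

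**Figure D4:**
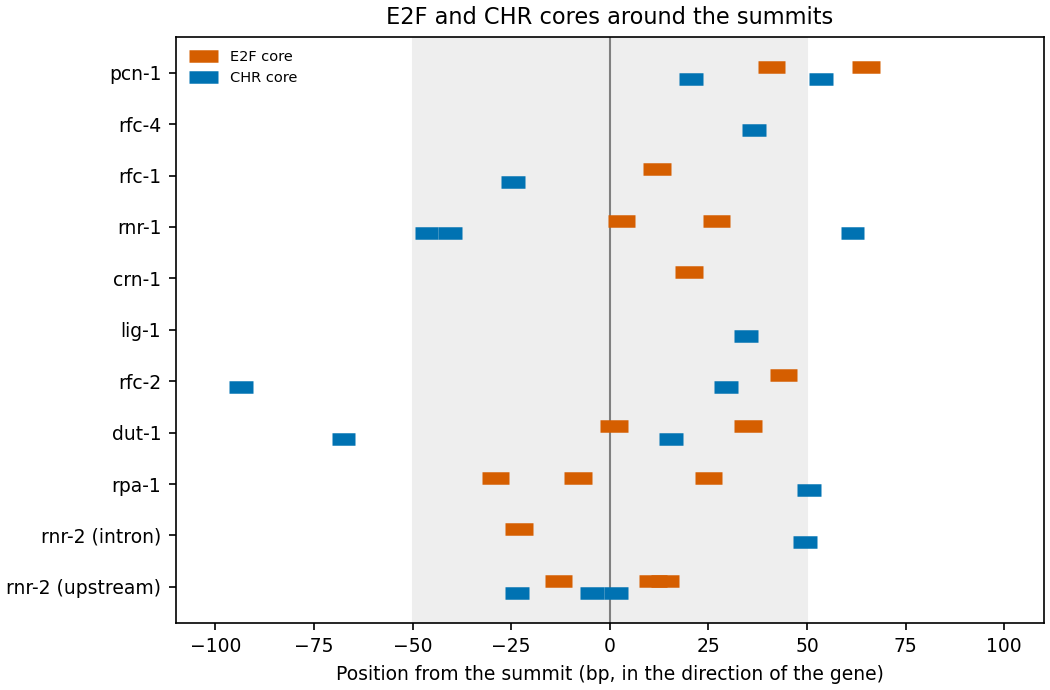
Positions of E2F cores (orange bars) and CHR cores (blue bars) in bp from the summit, in the direction of the gene, for the 9 promoter peaks and both peaks whose summits flank the rnr-2 promoter. The shaded band is 50 bp on either side of the summit. E2F cores lie in the band in 7 of the 9 promoter peaks and in both rnr-2 peaks.

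Other genes of the same machinery were bound in part. From a list of further clamps, loaders and lagging-strand genes, 8 of the 12 in the annotation had a reproducible promoter summit (66.7%). The clamp loader subunit gene rfc-3 was not among them, and a further subunit symbol, rfc-5, was not matched in the annotation and is not analysed here. The gene rfc-3 had a pooled entry at −65 bp that scored 21.7 (−log10 q of 1.72), below the lowest reproducible score of 35.7. Its replicate 2 entry scored 10.8 (−log10 q of 4.22), and it had no promoter entry in replicate 1. By contrast, the checkpoint clamp, a PCNA-like ring loaded at damaged DNA, had promoter peaks at all 3 of its genes listed, mrt-2 (score 2319, 268 in replicate 1 and 2054 in replicate 2), hpr-9 (529, 56.8 and 477) and hus-1 (60.1, 13.3 and 54.7), and at that of its loader hpr-17 (3426, 429 and 2998). The replicate 1 entry of hus-1 had its summit at −300 bp, away from the reproducible summit at −55 bp, and did not pass a −log10 q of 2 (0.65). The hpr-17 summit was shared with F32A11.1, that of hpr-9 with lron-10 and that of hus-1 with msh-2. Another listed loader gene, ctf-18, had no reproducible promoter summit. Its pooled promoter entry scored 10.9 (−log10 q of 0.20), with 8.12 in replicate 1 and 2.93 in replicate 2. Of the other replication protein A genes, rpa-2 scored 57.2, with a replicate 1 entry (14.8) that did not pass a −log10 q of 2 (0.83), and rpa-4 had no reproducible or pooled promoter entry, so that rpa-1 was the strongest of the 3.

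From a list of nucleotide synthesis genes, 7 of the 15 in the annotation had a reproducible promoter summit (46.7%), with a median score of 430. The strongest in the reproducible list was umps-1, which encodes the enzyme for the last steps of UMP synthesis (score 2748, 459 in replicate 1 and 2291 in replicate 2, summit at −351 bp). Genes of thymidylate synthesis, which dut-1 supplies with dUMP, were tyms-1, thymidylate synthase (251, 61.3 and 189), and dhfr-1, dihydrofolate reductase (64.6, 11.2 and 58.1), the latter at a summit shared with prp-4 and with a replicate 1 entry that did not pass a −log10 q of 2 (0.42). In the reproducible list tyms-1 thus scored near dut-1, at 251 against 232.

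For comparison, reproducible promoter summits were present at all 7 listed MCM genes, mcm-2 to mcm-7 and mcm-10, with a median score of 809 (404 to 1938). That median is the score of mcm-10, which does not encode a subunit of the helicase ring. Such summits were also present at 8 of 10 GINS, primase and replicative polymerase genes, with a median of 1048 (240 to 2199.6). The ranges overlapped with that of the clamp, loader and nucleotide supply genes (138 to 2745). No difference between these lists was tested.

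**Figure D5:**
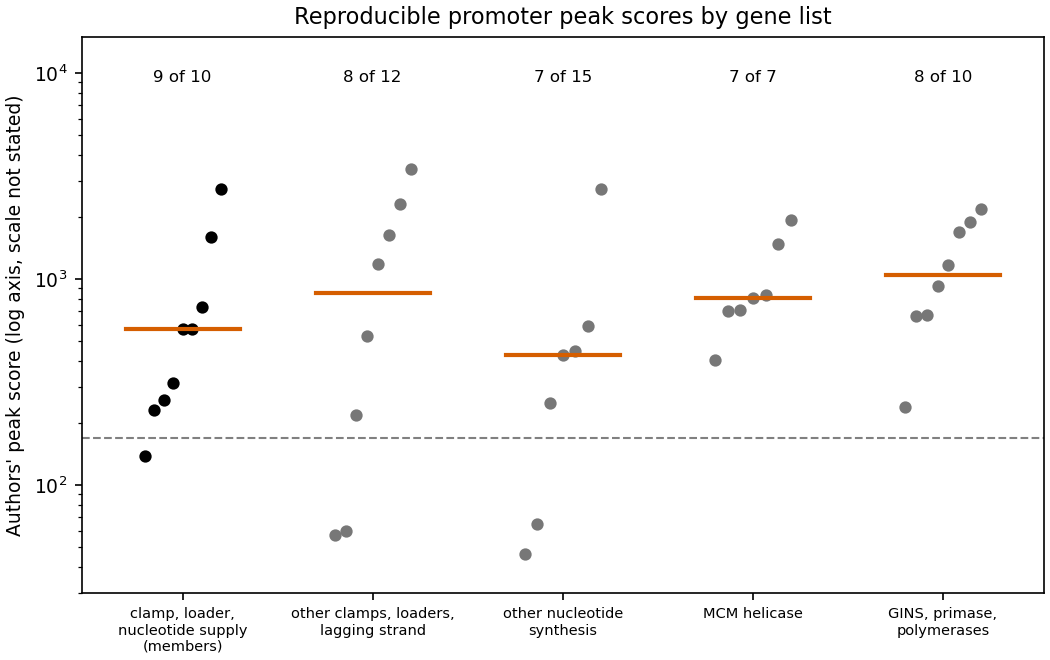
Authors' peak score on a log axis of each gene with a reproducible promoter peak (points), for the clamp, loader and nucleotide supply genes (black) and the other gene lists (grey). Orange bars are medians, the dashed line at 169 is the median of all bound genes, and the counts give genes with a peak of those in the annotation. The lists overlap over most of their ranges.

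The genes whose promoter scores were most like those of pcn-1 over the replicate 1, replicate 2 and pooled lists were hrpu-2 (305, 2456 and 2759), vps-4 (305, 2414 and 2724) and W04B5.3 (313, 2393 and 2704). Likeness was the Euclidean distance between log2 scores over these 3 lists, taken over 3546 genes with an entry in each, and was 0.04, 0.05 and 0.09.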

How the data were processed

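Peaks were taken from narrowPeak lists in the ce11 build. Per the deposited notes, the authors listed peaks and background regions for either replicate and for the pooled alignments, with a control shared by both, and filtered these by irreproducible discovery rate (IDR) into an optimal list. That list, called reproducible here, gave the main results. Not given in the sources used here are the aligner, the peak caller and the IDR cutoff. The score in column 7, the −log10 q and the summit offset (in bp from the peak's start) are the authors' deposited values. Lists in the older build were not used, and no coordinates were converted.

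Genes and starts came from Ensembl release 115 (WBcel235, the ce11 sequence) and sequence from the RefSeq copy of that assembly. Genes were matched by symbol, and a gene's score was that of its strongest promoter peak. Operons and trans-splicing were not considered. Analyses used Python 3.11.15, numpy 2.4.6 and pandas 2.3.3. On simulated data, 200 of 200 planted promoter summits and 200 of 200 planted cores were recovered, and 0 of 200 summits placed 1 bp outside the promoter were assigned.

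No test was run: the series holds 1 group, and peaks or genes are not replicates. The genes and lists were chosen with earlier results of these data known. Named are the 10 genes, the genes that share their summits, the 3 strongest pathway genes, pathway genes in a complex with a listed gene, and the 3 genes most like the strongest. Named after their values were seen were tyms-1, dhfr-1 and the neighbours of the pathway and rnr-2 peaks. Of the pathway lists, 2 symbols each were not matched, as were 2 polymerase symbols. Alternatives covered the promoter window, the start used, the list and threshold, each replicate alone and the width searched for cores.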

Additional observations from a re-analysis of the deposited data

How the results depend on the processing

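The number of the 10 genes counted was 8 to 10 over all alternatives, against 9 as reported. It was 10 with promoters 2 times as long and with any base of the peak in the promoter, and 8 with promoters 0.5 times as long (crn-1 lost, 10.1% of all genes counted), with only the outermost start (rnr-1 lost, 13.8%) and with support in each replicate (rfc-2 lost, 6.93%). It was 9, with rnr-2 as the gene not counted, in every pooled-list entry (33.2%), the stronger 50% of peaks (9.85%), the nearest start (11.3%), and without replicate 1 (14.8%) or without replicate 2 (11.8%). For each replicate alone, only its 3824 highest-scoring entries were used, as many as in the reproducible list. The median over all genes was then 34.2 in replicate 1 and 145 in replicate 2, against 10.1 and 21.1 in the full lists. The median score of the genes counted was 572 as reported, with the nearest start, the stronger 50% of peaks and every pooled-list entry, 572 with support in each replicate, 443 with the shorter promoter and 442 with the longer promoter, the outermost start and any overlap. From either replicate alone it was 104 to 441, on other scales. Divided by the median of all genes counted in the same way, it was 3.38 as reported, 3.03 without replicate 1 and 3.05 without replicate 2. This ratio was 2.72 with the longer promoter, 2.64 with the shorter promoter and 2.65 with any overlap. It was 2.56 with the outermost start and 3.70 with the nearest start. In the stronger 50% of peaks it was 1.84, with support in each replicate 1.12 and in every pooled-list entry 23.4. The stronger 50% of peaks differs by construction, since it selects on the score compared, and the pooled list counts more genes, with a lower median (24.5). Support in each replicate required a −log10 q above 2, which 1196 of 30000 entries passed in replicate 1. The median of all genes was then 512, and the cause of the lower ratio was not tested. The median summit distance was −157 to −139 bp from either full replicate list alone. With 25 bp searched on either side, a CHR core was found in 2 of the 9 (11.5% of promoter summits) and an E2F core in 5, against 7 and 7 as reported. No paired analysis was possible because there was 1 group. Depth was unknown, so that the weak replicate 1 entries of rfc-2 and rnr-2 could not be set against the reads behind them.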
